A study of Homo sapiens with 6 samples.

Results

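The 10 globin genes of the human alpha and beta clusters were followed here, by symbol, among the 60609 genes counted in each library. The alpha cluster on chromosome 16 gave HBZ, HBM, HBA2, HBA1 and HBQ1, in their order along the chromosome, and the beta cluster on chromosome 11 gave HBE1, HBG2, HBG1, HBD and HBB. Poly(A) RNA of K562, an established leukaemia line with erythroid features, was sequenced in 6 libraries. In every library the cells carried a C-terminal degradation tag on both endogenous copies of EP400, the scaffold and motor subunit of the TIP60 complex, and had received 500 nM dTAGV-1 for 24 h to remove the tagged protein. The WT group (n = 3) was complemented with full-length EP400 and the Delta-TRRAP group (n = 3) with EP400 lacking the SANT and HD domains that hold TRRAP, both from the AAVS1 locus. Each complemented line was a single clone, so clone and genotype cannot be told apart, and whatever spread the libraries show is spread within a clone. The comparison asks what the detached TRRAP module changes in steady-state RNA.

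Haemoglobin is assembled from alpha-like and beta-like globin chains. In the alpha cluster HBZ encodes the embryonic zeta chain, HBA1 and HBA2 encode the same adult alpha chain, and HBM and HBQ1 encode mu and theta globins with no settled role in haemoglobin. In the beta cluster HBE1 is embryonic, HBG1 and HBG2 are foetal, HBD is a minor adult gene and HBB is the major adult gene. Each cluster is switched on by distant enhancers, those of the alpha cluster lying partly inside the neighbouring gene NPRL3 and those of the beta cluster forming its locus control region. K562 is known for making embryonic and foetal rather than adult beta-like globin.

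In Delta-TRRAP cells the zeta and alpha globin genes were 4.91-fold to 10.4-fold higher than in WT cells and HBD was 2.76-fold lower. HBG2, HBG1, HBQ1 and HBB were not called changed. Of the 10 globin genes, 9 had enough counts to be tested and 5 were called changed, with 4 higher and 1 lower. HBE1 is among those higher, but its counts are no measure of epsilon globin RNA, as given below. Among all 19114 genes tested the share called was 22.6%, with 16.5% higher and 6.08% lower. A call required an adjusted p of 0.01 or less in edgeR's quasi-likelihood test with Benjamini-Hochberg adjustment over all genes tested, and a fold change of at least 2.

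The library totals were 35076835 to 42616061 counts. The globin genes together took 0.022% to 0.029% of the counts over WT libraries against 0.0577% to 0.0736% over Delta-TRRAP libraries. Even after the rise they were a small part of the counts. Their part of the RNA cannot be read from these shares, since much of several globin genes could not be counted, as given below. The share of mitochondrial counts also moved with the group, with 3.18% to 3.71% over WT libraries against 5.07% to 6.24% over Delta-TRRAP libraries. With mitochondrial genes left out of the counts and library sizes, 4 globin genes were called higher and 1 lower, and the log2 fold changes were 2.88 for HBZ, 3.37 for HBA2 and -1.47 for HBD. EP400 itself had 5057 ± 277 normalized counts in WT and 5574 ± 1238 in Delta-TRRAP libraries (SD, n = 3 each). Those reads come from the tagged gene and the transgene alike and do not check the labels. Of the lineage markers, the erythroid gene RHAG was abundant in both groups, while ELANE and MS4A1, of granulocytes and B cells, were at 0 in all 6 libraries, although the labels call the line a lymphoblast.

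How much of each gene could be counted at all differs between members and bears on every value below. Reads mapping to more than 1 place were discarded, and a read overlapping the exons of 2 genes on the same strand was given to neither. The main transcript of each gene was therefore cut into all its 100-base windows, and a window was called countable where it occurred in no transcript of another gene and touched no exon of another gene on that strand. The 100 bases stand in for a read, since the read length of these libraries is not given in the sources used here. By that measure HBM, HBQ1, HBD and HBB were countable along 100% of their windows. HBZ was countable in 395 of 699 windows (56.5%), the other 304 all touching a 205-base stretch shared with an annotated HBM transcript.

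**Figure D1:**
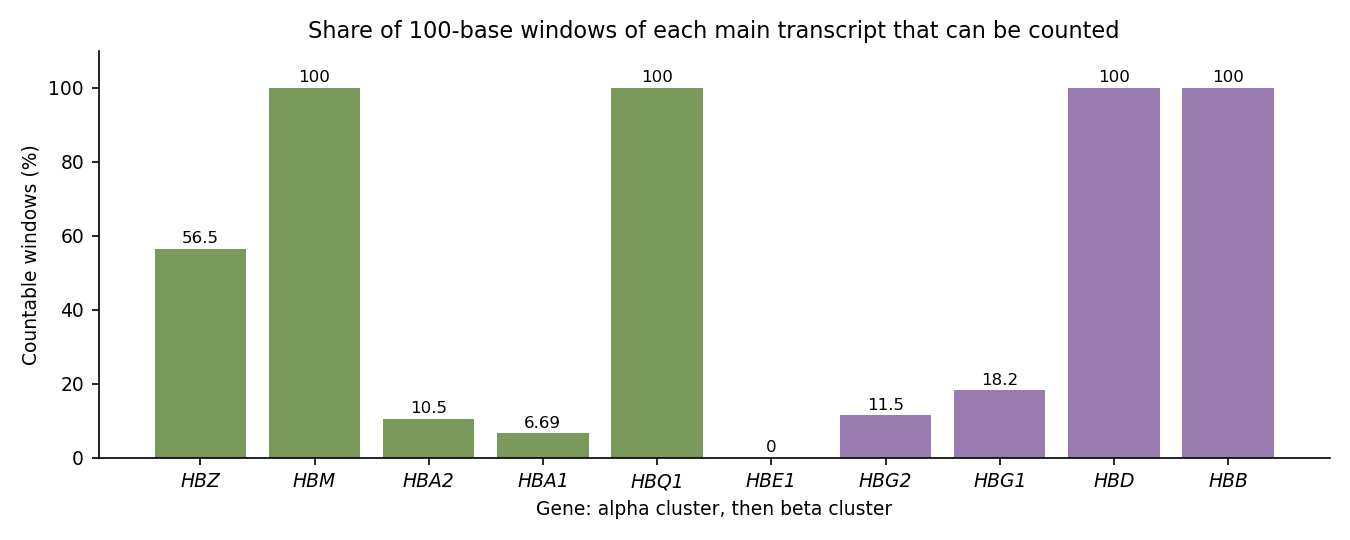
Percent of the 100-base windows of each gene's main transcript that a uniquely mapped read could be assigned to, for the alpha cluster (green) and the beta cluster (purple). The bars reach 100 for HBM, HBQ1, HBD and HBB, stay between 6.69 and 18.2 for the paired alpha and gamma genes, and lie at 0 for HBE1.

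The paired genes kept little. HBA2 was countable in 50 of 477 windows (10.5%) and HBA1 in 32 of 478 (6.69%), because their transcripts are near-identical. HBG2 was countable in 56 of 487 windows (11.5%) and HBG1 in 89 of 488 (18.2%), where a further annotated gene, AC104389.6, covers part of their exons. HBE1 had 0 of 524 countable windows, since 91.5% of the 623 bases of its main transcript lie in exons of other genes, mainly AC104389.5. By this measure its counts come from exons outside the main transcript, and they are no measure of the epsilon globin level, and the split of reads within the alpha and gamma pairs is uncertain. Fold changes of a gene compare the same countable bases in both groups.

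The RefSeq promoter table (GRCh38.p14) held entries for HBD and HBM. HBD is shown as the globin gene that fell and HBM as the member with almost no reads, each as the 250 bases before its RefSeq start. The bases run 5′ to 3′ on the gene's strand, at chr11:5234484-5234733 (minus strand) for HBD and chr16:165728-165977 (plus strand) for HBM. Both windows lie inside the wider GENCODE spans given for these genes below, so the RefSeq and GENCODE starts differ. Capitals mark the letters of 4 motifs found on either strand, which were CCAAT, a site of NF-Y, then CACCC, a site of KLF factors, then GATAA, a site of GATA factors, and lastly ATAAA, a form of the TATA box. The last pair share letters and can overlap.
HBD: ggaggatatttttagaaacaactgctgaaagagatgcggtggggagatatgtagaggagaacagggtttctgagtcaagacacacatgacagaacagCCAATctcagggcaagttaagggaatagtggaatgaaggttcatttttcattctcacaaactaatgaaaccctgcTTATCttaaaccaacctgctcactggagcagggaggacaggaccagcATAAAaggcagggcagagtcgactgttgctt
HBM: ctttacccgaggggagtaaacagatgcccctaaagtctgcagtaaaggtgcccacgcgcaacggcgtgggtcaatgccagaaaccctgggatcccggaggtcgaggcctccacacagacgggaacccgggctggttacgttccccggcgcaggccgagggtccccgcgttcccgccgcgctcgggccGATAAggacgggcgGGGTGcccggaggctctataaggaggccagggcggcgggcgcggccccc
In the HBD window CCAAT lay 153 to 149 bases before the start, GATAA on the other strand 78 to 74 bases before it and ATAAA 31 to 27 bases before it, with no CACCC. In the HBM window GATAA lay 63 to 59 bases and CACCC, on the other strand, 49 to 45 bases before the start, with no match to the other motifs. Among 35116 promoters of the same length, the CCAAT letters were in 32.01%, those of the KLF motif in 54.7%, those of the GATA motif in 20.4% and those of the TATA-box form in 32.7%, so each of these short motifs is common.

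HBZ (ENSG00000130656.6, chr16:142728-154503 on the plus strand of hg38), the embryonic zeta globin gene, carried the most counts of the alpha cluster. Its normalized counts, which are counts scaled to a common library size with TMM factors, were 1389, 1576 and 1353 in WT replicates 1 to 3 and 10385, 9340 and 12270 in Delta-TRRAP replicates 1 to 3. All 3 Delta-TRRAP libraries lay far above all 3 WT libraries. The means were 1439 ± 120 and 10665 ± 1485 (SD, n = 3 each), a log2 fold change of 2.89 ± 0.09 (SE; edgeR's quasi-likelihood test, adjusted p = 6.4e-13).

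HBA2 (ENSG00000188536.13, chr16:172876-173710), the more upstream of the adult alpha genes, gave 621, 558 and 513 normalized counts in WT and 5913, 5586 and 6103 in Delta-TRRAP libraries. The groups did not overlap, and the spread within each was small beside the gap. The log2 fold change was 3.38 ± 0.07 (SE, edgeR, adjusted p = 7.06e-15), the largest of the 10 genes. HBA1 (ENSG00000206172.8, chr16:176680-177522), which encodes the same chain, gave 308, 387 and 317 normalized counts in WT and 1683, 1347 and 1952 in Delta-TRRAP libraries. It too separated the groups in full, with a log2 fold change of 2.30 ± 0.12 (SE, edgeR, adjusted p = 1.93e-10). Counts of HBA1 and HBA2 were also summed before the fit, so that their split between the copies did not matter. Discarded reads stay missing from this sum, as from the gamma sum below. The alpha sum went from 903 ± 63.1 to 7515 ± 611 normalized counts (SD, n = 3 each), a log2 fold change of 3.06 ± 0.07 (SE, edgeR, adjusted p = 2.17e-14).

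The alpha cluster did not move as a block. HBQ1 (ENSG00000086506.3, chr16:180459-181179), the theta globin gene at the far end of the cluster, gave 276, 247 and 245 normalized counts in WT and 258, 246 and 250 in Delta-TRRAP libraries. The groups overlapped, and the log2 fold change of -0.03 ± 0.09 (SE, edgeR, adjusted p = 0.8) took either sign with the scaling. HBM (ENSG00000206177.7, chr16:153892-166764), the mu globin gene, had 1, 0 and 0 raw counts in WT and 2, 0 and 0 in Delta-TRRAP libraries and was not tested. HBZP1, the zeta pseudogene, had 0 counts over the WT libraries and 6 over the Delta-TRRAP libraries, and HBAP1 was not analysed here.

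**Figure D2:**
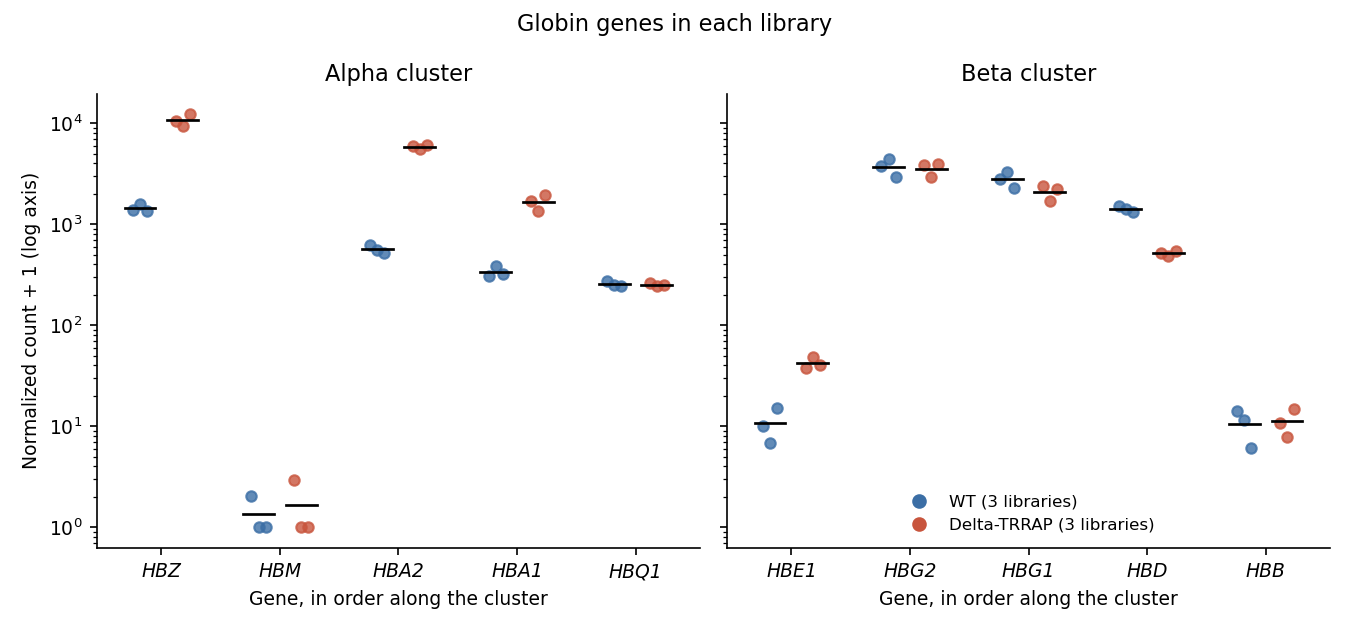
Normalized counts plus 1 on a log axis for each globin gene in every library, with WT in blue, Delta-TRRAP in red and a black bar at each group mean. HBZ, HBA2, HBA1 and HBE1 lie higher and HBD lower in all 3 Delta-TRRAP libraries, while the groups overlap for HBM, HBQ1, HBG2, HBG1 and HBB.

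In the beta cluster the foetal genes carried most of the counts. HBG2 (ENSG00000196565.15, chr11:5253188-5505605 on the minus strand) gave 3722, 4364 and 2920 normalized counts in WT and 3826, 2895 and 3932 in Delta-TRRAP libraries. The groups overlapped, and the log2 fold change was -0.05 ± 0.12 (SE, edgeR, adjusted p = 0.744), with a sign that changed under other scalings.

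HBG1 (ENSG00000213934.8, chr11:5248269-5249857) gave 2820, 3287 and 2263 normalized counts in WT and 2375, 1706 and 2213 in Delta-TRRAP libraries. Delta-TRRAP replicate 1 lay above WT replicate 3, so the groups overlapped. The log2 fold change of -0.41 ± 0.12 (SE, edgeR, adjusted p = 0.00664) was under the fold required for a call, and its adjusted p ran from 8.85e-13 to 0.0822 over the alternatives tried, passing or missing 0.01. The summed gamma genes went from 6472 ± 1240 to 5642 ± 946 normalized counts (SD, n = 3 each), with a log2 fold change of -0.20 ± 0.12 (SE, edgeR, adjusted p = 0.163). HBG1 and HBG2 also varied within each group. Their coefficients of variation were 16.1% to 19.7%, beside 5.31% and 6.36% for HBD and medians of 3.56% (WT) and 4.45% (Delta-TRRAP) over all genes tested with a mean of at least 1000.

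HBD (ENSG00000223609.11, chr11:5232678-5243657), the delta globin gene whose promoter is printed above, was the member that fell. It gave 1505, 1419 and 1325 normalized counts in WT and 519, 485 and 538 in Delta-TRRAP libraries. Every Delta-TRRAP library was below every WT library. The means were 1416 ± 90.0 and 514 ± 27.3 (SD, n = 3 each), a log2 fold change of -1.46 ± 0.07 (SE, edgeR, adjusted p = 3.92e-11).

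HBB (ENSG00000244734.4, chr11:5225464-5229395), the major adult gene, had 13, 11 and 5 raw counts in WT and 10, 7 and 13 in Delta-TRRAP libraries, although all of its windows were countable. At so few counts the log2 fold change of 0.06 ± 0.41 (SE, edgeR, adjusted p = 0.904) leaves a change of moderate size undetectable. HBE1 (ENSG00000213931.7, chr11:5268345-5505652) had 9, 6 and 14 raw counts in WT and 37, 49 and 37 in Delta-TRRAP libraries. The groups did not overlap, and the log2 fold change was 2.08 ± 0.29 (SE, edgeR, adjusted p = 1.33e-05). Since none of the windows of its main transcript could be counted, that rise cannot be read as a rise of epsilon globin RNA. AC104389.5, whose exons cover the epsilon gene, also rose, from 31.8 ± 5.84 to 69.3 ± 4.79 normalized counts (SD, n = 3 each, log2 fold change 1.12 ± 0.18, edgeR adjusted p = 5.96e-05).

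The noncoding genes between the gamma and delta genes had changes of opposite sign, neither past the fold required. BGLT3, a noncoding RNA gene, gave 158, 122 and 151 normalized counts in WT and 251, 238 and 305 in Delta-TRRAP libraries. Its log2 fold change was 0.88 ± 0.12 (SE, edgeR, adjusted p = 1.17e-05). HBBP1, a beta-like pseudogene, gave 794, 747 and 722 in WT and 536, 478 and 603 in Delta-TRRAP libraries, a log2 fold change of -0.49 ± 0.08 (SE, edgeR, adjusted p = 5.81e-05). For both the groups did not overlap. HBBP1 shares 88 bases with an annotated HBD transcript, which costs both genes reads there.

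**Figure D3:**
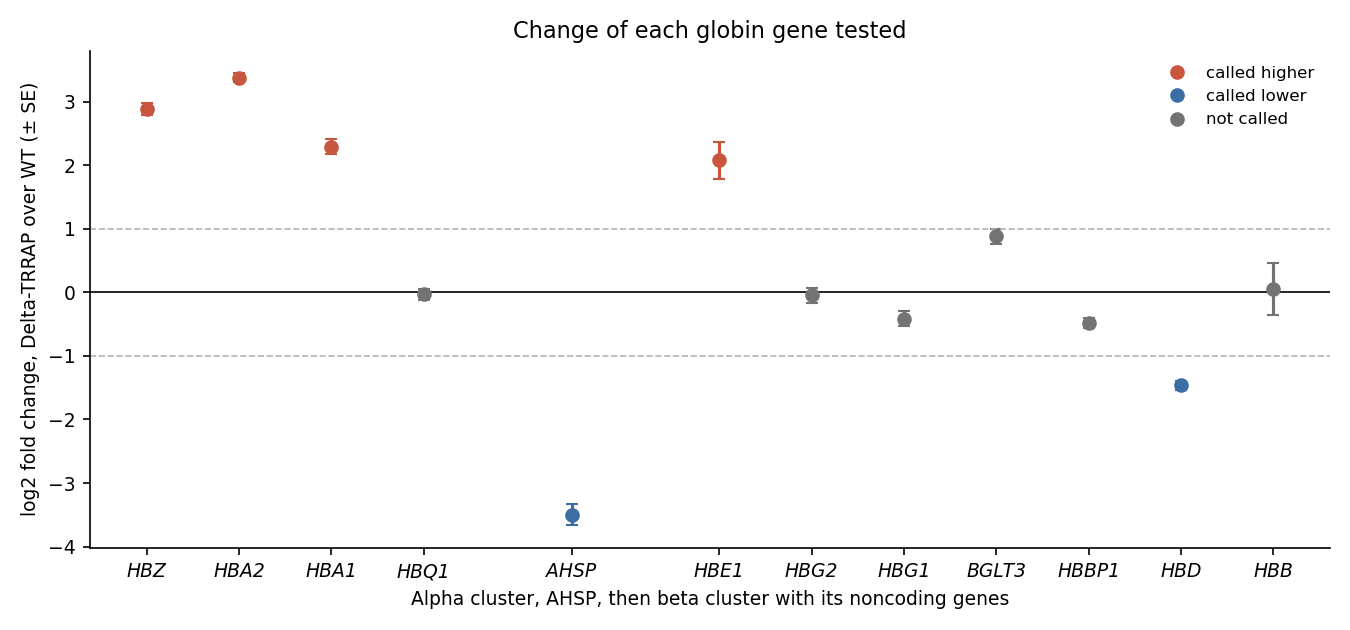
log2 fold change of Delta-TRRAP over WT, with its standard error from edgeR, for each globin gene tested, for AHSP and for the noncoding genes BGLT3 and HBBP1. Red points were called higher, blue points lower and grey points not called, and the dashed lines mark a fold change of 2. HBA2 is the highest at 3.38, AHSP the lowest at -3.50, and HBD falls to -1.46 beside gamma genes at -0.05 and -0.41.

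Ratios between members within a library need no scaling and show which genes parted from each other. There were 8 such ratios, each tested by a two-sided exact permutation test over the 6 libraries, in which 3 against 3 cannot give a p below 0.1. Raw counts of the alpha cluster were 0.332 times those of the beta cluster in WT and 2.98 times in Delta-TRRAP cells (geometric means). The separate ratios were 0.322, 0.305 and 0.372 in WT and 2.70, 3.21 and 3.05 in Delta-TRRAP libraries. The clusters thus changed places as the larger source of counted globin reads, an 8.99-fold shift (exact permutation p = 0.1, adjusted p = 0.114 over the 8 ratios). Which sum is larger depends on the bases that could be counted, with 0 countable windows for HBE1. The balance of alpha-like and beta-like RNA therefore cannot be read from this ratio.

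Within the alpha cluster HBZ and the summed alpha genes were both called higher. Their ratio was 1.495, 1.67 and 1.63 in WT and 1.37, 1.35 and 1.52 in Delta-TRRAP libraries (exact permutation p = 0.2), and those values overlap. HBQ1 over HBZ went from 0.178 to 0.0237. HBA2 over HBA1 was 2.02, 1.44 and 1.62 in WT and 3.51, 4.15 and 3.13 in Delta-TRRAP libraries, without overlap. With 10.5% and 6.69% of windows countable, this ratio rests on the few stretches where the alpha genes differ.

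Within the beta cluster HBD parted from its neighbours. HBD over the summed gamma genes went from 0.222 to 0.0917 and HBD over HBBP1 from 1.88 to 0.957, each without overlap. HBG2 over HBG1 was 1.32, 1.33 and 1.29 in WT and 1.61, 1.70 and 1.78 in Delta-TRRAP libraries, also without overlap. The uneven libraries of the gamma genes are even in this ratio, since HBG1 and HBG2 were high or low in the same WT libraries. The ratio of HBE1 counts to the gamma genes went from 0.00142 to 0.00729 and carries the limit given for HBE1. These ratios without overlap each gave p = 0.1 in the exact permutation test, or 0.114 once adjusted over the 8 ratios.

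**Figure D4:**
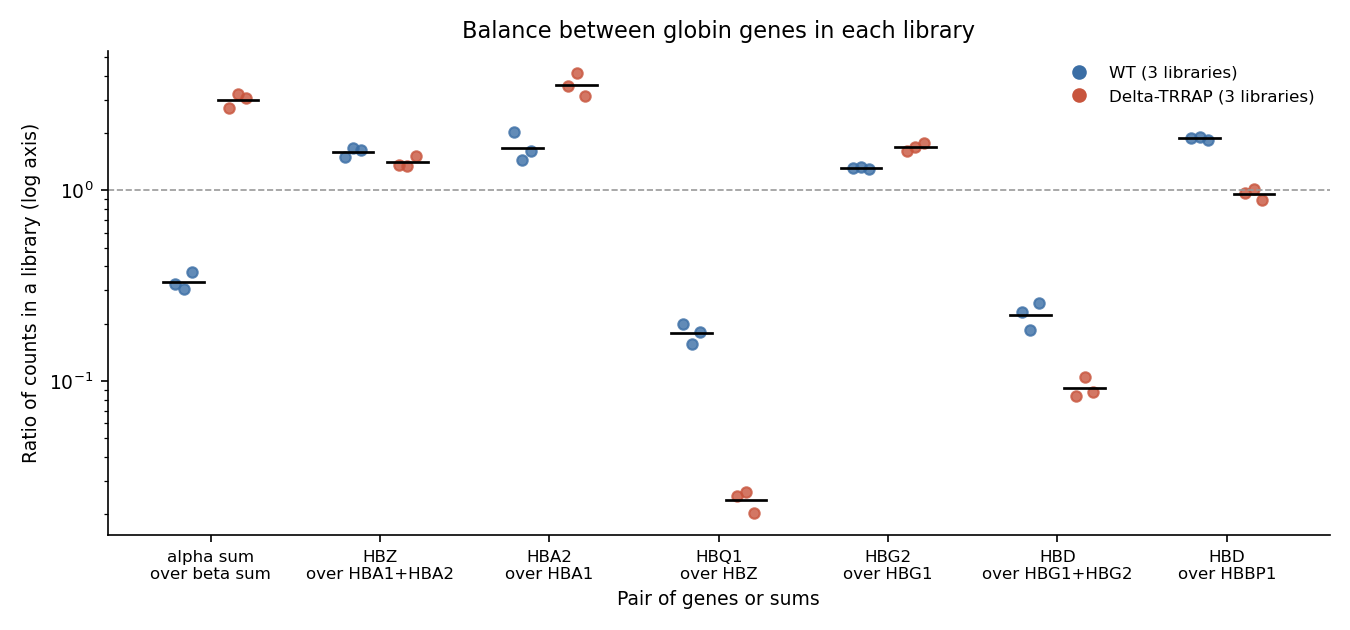
Ratio of raw counts of pairs of globin genes or sums in each library, on a log axis, with WT in blue, Delta-TRRAP in red, black bars at the geometric mean and a dashed line at a ratio of 1. The ratio of the alpha sum to the beta sum passes from 0.332 to 2.98, and HBQ1 over HBZ from 0.178 to 0.0237, while HBZ over the alpha genes overlaps between groups.

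Per kilobase of exon, HBZ made up 44.1% ± 1.85 of the alpha cluster in WT and 48.9% ± 1.77 in Delta-TRRAP cells, and the summed alpha genes 38.6% ± 0.730 and 48.5% ± 1.52 (SD, n = 3 each). HBQ1 made up 17.3% ± 1.35 of the cluster in WT and 2.55% ± 0.248 in Delta-TRRAP cells. In the beta cluster the gamma genes made up 83.2% ± 2.30 and 91.8% ± 1.03, HBD 16.6% ± 2.23 and 7.34% ± 0.822, and HBB 0.0960% ± 0.0344 and 0.124% ± 0.0290. Most of these shares did not overlap between groups, with an exact permutation p of 0.1, while those of HBB did (p = 0.4). Both the order of the zeta and alpha genes and the change in the share of HBZ depend on the length used. With countable windows as the length, HBZ made up 14.0% ± 0.494 of the cluster in WT and 13.7% ± 0.681 in Delta-TRRAP cells, a change of the opposite sign (exact permutation p = 0.6), and the alpha genes 83.7% ± 0.350 and 86.0% ± 0.657. With no length the shares of HBZ overlapped between groups (exact permutation p = 0.3). Neither the order of their levels nor a change in the share of HBZ can be read from these counts. In the beta cluster the direction held with countable windows, but the changes were smaller, from 97.2% ± 0.432 to 98.8% ± 0.137 for the gamma genes and from 2.78% ± 0.434 to 1.14% ± 0.139 for HBD, and HBE1 could not be included. The size of the beta cluster shares thus also depends on the length used. By the window measure, the main transcript of HBE1 is missing from all of them.

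The factors known to act at these clusters were read against the 16.5% of all genes called higher and 6.08% called lower. Of 13 activators of globin genes, all tested, 0 were called higher and 1 lower by edgeR, with a median log2 fold change of 0.11 beside 0.03 for all genes tested. A further 4 with positive and 5 with negative changes passed the adjusted p of 0.01 alone, which 58.3% of all genes did. LMO2, an adaptor of the GATA1 and TAL1 complex, fell from a mean of 5089 ± 110 normalized counts in WT to 2312 ± 111 (SD, n = 3 each, log2 fold change -1.14 ± 0.05, edgeR adjusted p = 4.69e-11).

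The remaining activators stayed within a fold of 2. TCF3 and NFYB, singled out after their values were seen, came nearest to it. Their log2 fold changes were -0.98 ± 0.05 (SE, edgeR, adjusted p = 8.25e-11) and -0.92 ± 0.07 (adjusted p = 9.26e-09). The largest rise among the activators was that of TAL1. GATA1, the zinc finger factor of the GATA motif, had a log2 fold change of -0.18 ± 0.05 (SE, edgeR, adjusted p = 0.00505), and TAL1, its partner, one of 0.75 ± 0.05 (adjusted p = 2.71e-09). KLF1, which binds CACCC elements, had one of 0.11 ± 0.05 (SE, edgeR, adjusted p = 0.0615), and NFE2, which acts at globin enhancers, one of 0.71 ± 0.05 (adjusted p = 8.69e-09).

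Of 22 repressors and silencing factors, 21 were tested by edgeR, with 0 called higher, 2 lower and a median log2 fold change of -0.34. Of the rest, 1 with a positive and 12 with negative changes passed the adjusted p alone. MYB, a factor of erythroid progenitors that restrains gamma globin, fell from 14434, 15288 and 15210 normalized counts in WT to 5576, 6137 and 5606 in Delta-TRRAP libraries, with no overlap (log2 fold change -1.38 ± 0.05, edgeR adjusted p = 9.34e-12). SOX6, a repressor of embryonic beta-like globin, fell from 920 ± 53.9 to 384 ± 55.2 (SD, n = 3 each, log2 fold change -1.26 ± 0.09, edgeR adjusted p = 5.12e-09). BCL11A, the main silencer of gamma globin, had 1 raw count in each WT library and 5, 2 and 2 in Delta-TRRAP libraries and was not tested. ZBTB7A, another gamma silencer, had a log2 fold change of -0.10 ± 0.06 (SE, edgeR, adjusted p = 0.14).

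Of 5 genes known to raise foetal globin, 1 was called higher and 0 lower by edgeR, with a median log2 fold change of -0.21. FOXO3, a factor of red cell maturation, rose from 1409 ± 82.6 to 3343 ± 147 normalized counts (SD, n = 3 each, log2 fold change 1.25 ± 0.06, edgeR adjusted p = 4.8e-11). LIN28B and IGF2BP1, RNA-binding proteins of the foetal programme, had log2 fold changes of -0.41 ± 0.06 and -0.38 ± 0.07, HIC2, a repressor of BCL11A, one of -0.21 ± 0.06, and IGF2BP3 one of -0.04 ± 0.05 (SE).

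AHSP, the chaperone that holds free alpha chains until they pair, went against the alpha genes. It gave 238, 197 and 217 normalized counts in WT and 22.6, 15.6 and 19.0 in Delta-TRRAP libraries. Every Delta-TRRAP library was far below every WT library, with a log2 fold change of -3.50 ± 0.16 (SE, edgeR, adjusted p = 5.89e-11), an 11.3-fold fall. EIF2AK1, the kinase that slows globin translation when haem is short, had a log2 fold change of 0.58 ± 0.05 (SE, edgeR, adjusted p = 1.17e-07), under the fold required. The globins outside the clusters had almost no reads. MB (myoglobin) had 4 counts over the WT libraries and 7 over the Delta-TRRAP libraries, CYGB (cytoglobin) 5 and 11, ADGB (androglobin) 1 and 3, and NGB (neuroglobin) 0 in all 6 libraries.

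Among erythroid markers some rose with the alpha genes and others fell, so the list did not move as a whole. Of 12 markers, all tested, 4 were called higher and 2 lower by edgeR, with a median log2 fold change of 0.37. Among all genes tested 16.5% were called higher and 6.08% lower, with a median of 0.03. SLC4A1, the band 3 anion exchanger, rose from 214 ± 3.64 to 4318 ± 249.3 normalized counts and ALAS2, the first enzyme of erythroid haem synthesis, from 1241 ± 81.8 to 16645 ± 515 (SD, n = 3 each). EPB42 and ANK1, of the red cell membrane skeleton, were the other genes called higher. TFRC, the transferrin receptor, and AHSP were lower. Summed over the list, erythroid marker counts ranged over 271800 to 276200 for WT against 199600 to 217500 for Delta-TRRAP libraries, a total that TFRC dominates. Fewer cells of a type and less RNA per cell cannot be told apart in bulk RNA.

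Some markers of other cell types also moved with the group. Their calls stand beside the 16.5% of all genes tested called higher and the 6.08% called lower. Of 10 megakaryocyte markers, 2 were tested and ITGA2B was called lower, and GP1BA, GP1BB, GP9 and PF4 were at 0 in all 6 libraries. The summed list ran from 724 to 785 normalized counts for WT against 180 to 217 for Delta-TRRAP libraries, a fall made up of ITGA2B, which went from 661 ± 31.6 to 89.3 ± 14.5 (SD, n = 3 each). ITGB3 had 87.1 ± 4.88 and 97.8 ± 5.96 normalized counts and was not called, and PPBP with 2 and 13 raw counts and VWF with 1 and 10 over each group were not tested. Of 7 fibroblast markers, 4 were tested, COL1A2 and PDGFRB were called higher and LUM was at 0. The summed level was 35.5 to 57.0 for WT against 909.7 to 973 for Delta-TRRAP libraries, where it was nearly all COL1A2. Of 6 markers of other blood lineages, 4 were tested and MPO was called higher, and the sums were 47.0 to 64.1 and 64.7 to 79.0. The part of these genes' cells in the globin changes was not tested.

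Genes around the clusters were taken within 500 kb of the outermost annotated ends of the members. In the beta cluster the spans of HBE1 and HBG2 end at 5505652 and 5505605. These spans are far longer than the 623 and 586 bases of the main transcripts, and they set the window on that side. Around the alpha cluster 31 neighbours were tested by edgeR, with 3 called higher and 3 lower (19.4% called, beside 22.6% of all genes tested, median log2 fold change -0.14). NPRL3, an amino acid sensing gene whose introns hold alpha globin enhancers, gave 1054, 1131 and 1213 normalized counts in WT and 2288, 2420 and 2365 in Delta-TRRAP libraries. The groups did not overlap, and the log2 fold change was 1.06 ± 0.06 (SE, edgeR, adjusted p = 3.9e-10). The other neighbours called were weakly counted, with Z97634.1 and WFIKKN1 higher and ARHGDIG, MIR3176 and PRR35 lower, each with at most 97 counts summed over either group.

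Around the beta cluster 18 neighbours were tested by edgeR, with 5 called higher and 0 lower (27.8% called, beside 22.6% of all genes tested, median log2 fold change 0.73). At this number of genes the share called is near that of all genes. All 5 calls were in 1 direction, and 16.5% of all genes tested were called higher, with a median of 0.03 over all genes tested. BGLT3 and HBBP1 are among those tested. The olfactory receptor gene OR51B2 rose from 84.0 ± 9.93 to 169 ± 40.3 normalized counts (SD, n = 3 each), and UBQLNL from 9 to 47 raw counts over each group. Farther away, TRIM6 rose from 220 ± 7.85 to 806 ± 18.5 normalized counts, and TRIM22, an interferon-responsive gene, from 8.61 ± 1.31 to 215 ± 14.6, a log2 fold change of 4.62 ± 0.18 (SE, edgeR, adjusted p = 6.78e-12). AC104389.5, described with HBE1, was the fifth. OR51B5, singled out after its values were seen because its exons overlap those of HBE1 and HBG2, had 2442 ± 21.2 and 2985 ± 61.7 normalized counts (log2 fold change 0.29 ± 0.05, edgeR adjusted p = 6.52e-05), under the fold required.

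**Figure D5:**
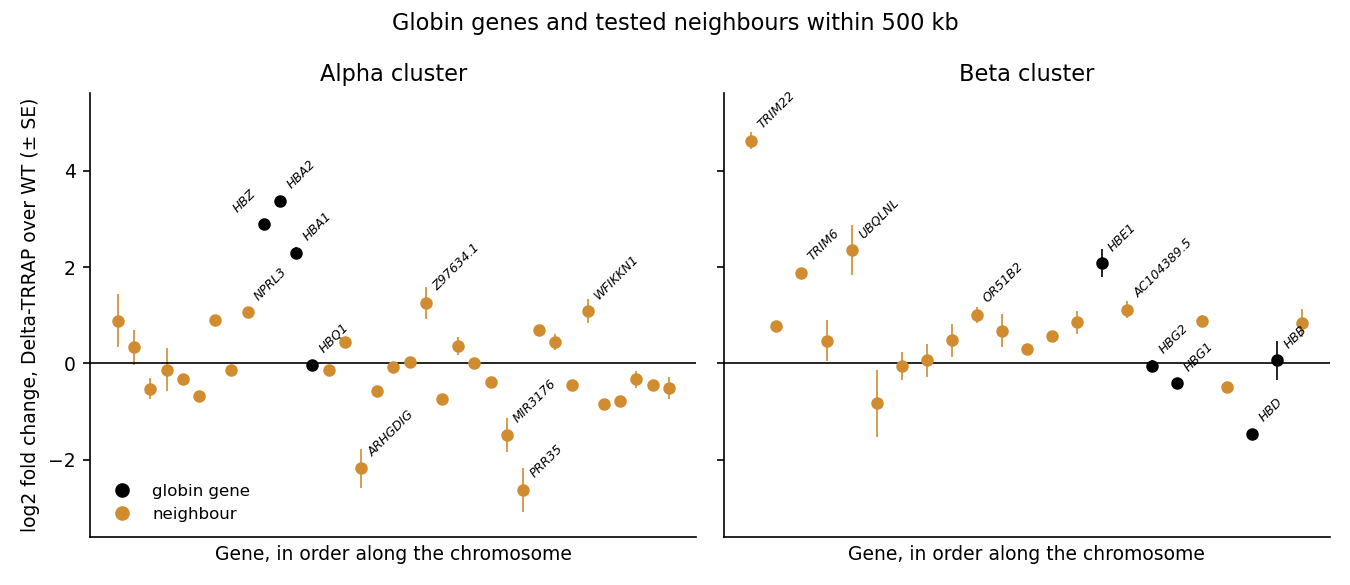
log2 fold change of Delta-TRRAP over WT (with SE) for globin genes (black) and tested neighbours within 500 kb (orange), in order along the chromosome, with genes past a log2 fold change of 1 in either direction named. HBZ, HBA2 and HBA1 stand above their neighbours, of which NPRL3 reaches 1.06, and TRIM22 reaches 4.62 beyond the beta cluster.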

How the data were processed

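The authors aligned reads to hg38 with STAR, kept uniquely mapping reads and counted them per GENCODE release 32 gene with HTSeq 2.0.2, reverse-stranded and in union mode. The deposited values used here are these raw counts per gene and library. They also deposited 2 tables for the series, of size-factor-scaled signal and of their own comparison (fold changes and p-values), which were not used. Groups and replicate numbers came from the sample titles. Counts were fitted for all genes with edgeR 4.0.16 (R 4.3.3; TMM factors, quasi-likelihood F test, group as the only term) where the mean normalized count was at least 5, and called where the adjusted p was at most 0.01 and the fold change at least 2. The fit was tested on simulated data. DESeq2 1.42.0, limma-voom 3.58.1, other scalings, filters and thresholds, a replicate block, each library left out and summed copies were alternatives. Transcripts, exons and neighbours came from GENCODE release 44, which gives the same gene version for 9 of 10 members, and promoters from RefSeq. All members were named with values; of the short lists every gene, and of the activators, repressors and neighbours those called plus a preset few. Members and lists were chosen with earlier results of these data known. Replicate libraries differed beyond counting noise (chi-square over degrees of freedom 5.43 to 17.5). Single values of some marker genes are not reported here.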

Additional observations from a re-analysis of the deposited data

How the results depend on the processing

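The calls of HBZ, HBA2, HBA1, HBE1 and HBD held under every alternative in which the gene was tested on its own. HBE1 was not tested with a mean count of at least 50, which left 4 globin genes called, 3 of them higher. The log2 fold change of HBQ1 turned to 0.074 with upper-quartile factors, 0.11 with library size only and 0.046 with a mean count of at least 50, and ran from -0.063 to 0.023 with a library left out. That of HBG2 turned to 0.055, 0.087 and 0.026 under the same 3 settings and ran from -0.19 to 0.087 with a library left out, and that of HBB ran from -0.24 to 0.34 in those fits. Without WT replicate 2 or Delta-TRRAP replicate 2 HBG2 was positive, and without WT replicate 3 or Delta-TRRAP replicate 3 HBB was negative. None of these was called, and the cause was not tested. Upper-quartile factors and library size only shifted the median over all genes, on the log2 scale, by 0.10 and 0.14. The change in share of the alpha cluster, in percentage points, was 2.30 for HBZ with no length and -0.30 with countable windows, and 6.21, 8.13 and 2.29 for the alpha genes with no length, the longest transcript and countable windows. For the beta cluster it was 1.64 for the gamma genes with countable windows, and -10.95 and -1.65 for HBD with the longest transcript and countable windows. Called neighbours of the alpha cluster numbered 2 within 200 kb and 11 within 1000 kb, and those of the beta cluster 9 within 1000 kb. Over all genes, 1964 were called with a mean count of at least 50 and 6750 at a fold change of 1.5. The replicate block left the 5 globin calls in place and called 4184 genes. Same-numbered libraries did not deviate together (correlations -0.029 to -0.0095), so the numbers do not pair them. At 3 libraries a group, the ratios cannot pass an exact test at 0.05, and HBB, HBM and BCL11A are limited by depth.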
